A study of Mus musculus with 26 samples.

Results

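The 10 genes described here encode prostaglandin synthases (Ptgs1, Ptgs2, Ptgds, Ptges and Ptgis) and prostaglandin receptors (Ptger2, Ptger3, Ptger4, Ptgfr and Ptgir). They were taken by symbol from the 16426 genes with a row in the single-cell tables of mouse RPE/choroid, the retinal pigment epithelium (RPE) and the vascular layer behind it. Prostaglandins are short-lived lipid signals made from arachidonic acid, which the cyclooxygenases COX-1 (Ptgs1) and COX-2 (Ptgs2) turn into prostaglandin H2. Terminal synthases then make prostaglandin D2 (Ptgds, the lipocalin-type synthase), E2 (Ptges) or I2, also called prostacyclin (Ptgis). The products leave the cell and bind G protein-coupled receptors on the same or neighbouring cells, which are EP2, EP3 and EP4 for E2 (Ptger2, Ptger3 and Ptger4), FP for F2α (Ptgfr) and IP for prostacyclin (Ptgir). Ptgs1 is known as the constitutive and Ptgs2 as the inducible cyclooxygenase, and Ptgds as an abundant secreted product of the eye and brain.

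Single-cell and bulk data were used. Single-cell RNA sequencing (scRNAseq) counted unique molecular identifiers (UMIs, 1 per captured transcript) in 1 library of B6129PF1/J and 1 library of C57BL/6J mice at 3 months of age, each a mixture of 1 male and 1 female eye sorted as Hoechst+ TO-PRO-3- cells. Bulk RNA sequencing compared RPE/choroid of C57BL/6J mice at 6 months of age that were Ihh+/+ or Ihh iΔEC (Ihhi{delta}EC/{delta}iEC in the labels), in which the loxP-flanked gene of the ligand Indian hedgehog was deleted in endothelial cells (ECs) throughout the body by Cdh5-PAC-CreERT2. Both genotypes carried this Cre and received tamoxifen 12 weeks earlier. A second bulk experiment compared GLI1+ stromal cells of Gli1GFP/+ mice (labelled SWR/J, and outcrossed to BALB/c per the study's methods), pooled from 6 females and expanded in culture for up to 3 passages, after 24 h with DMSO or with 100 nM SAG, an agonist of the Hedgehog transducer Smoothened. The bulk tables hold the authors' mean over 3 libraries of each group, so no SD could be given and no test was made from them. The last group of samples is ECs sorted from neural retina (pooled animals), lung, liver and heart of B6129PF1/J mice at 1 month of age, also as means over 3 libraries.

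The 10 genes lie on 6 chromosomes of GRCm38 in GENCODE vM21. Ptgds (ENSMUSG00000015090) spans chr2:25466709-25470046, Ptgs1 (ENSMUSG00000047250) chr2:36230426-36252272, Ptges (ENSMUSG00000050737) chr2:30889471-30929863 and Ptgis (ENSMUSG00000017969) chr2:167191805-167240604. Ptgs2 (ENSMUSG00000032487) spans chr1:150100031-150108227, Ptger2 (ENSMUSG00000037759) chr14:44988195-45003820 and Ptger4 (ENSMUSG00000039942) chr15:5206661-5244187. Ptger3 (ENSMUSG00000040016) spans chr3:157566892-157645888, Ptgfr (ENSMUSG00000028036) chr3:151796502-151837630 and Ptgir (ENSMUSG00000043017) chr7:16906490-16910905. The body of Ptger2 is overlapped on the opposite strand by the noncoding genes Gm17173 and Gm49364, and that of Ptger4 by the protein-coding gene Ttc33.

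The 250 bases before the transcription start (RefSeq, GRCm38.p6) are shown for 4 genes whose levels contrasted most in what follows: Ptgds in RPE and melanocytes, Ptgs1 in ECs, Ptgs2 in stromal cells, and Ptger2, which differed in the Ihh comparison. Each is written 5′ to 3′ in the direction of transcription, and capitals mark a motif match. RefSeq starts can differ from the GENCODE gene ends given above, and the Ptgds window lies inside the GENCODE gene.
Ptgds (chr2:25469750-25469999, minus strand): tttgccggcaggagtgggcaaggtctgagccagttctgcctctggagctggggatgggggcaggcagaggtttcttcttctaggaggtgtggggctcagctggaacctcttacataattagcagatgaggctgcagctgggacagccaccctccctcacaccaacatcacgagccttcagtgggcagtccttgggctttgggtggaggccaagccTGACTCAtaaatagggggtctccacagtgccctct
Ptgs1 (chr2:36230176-36230425, plus strand): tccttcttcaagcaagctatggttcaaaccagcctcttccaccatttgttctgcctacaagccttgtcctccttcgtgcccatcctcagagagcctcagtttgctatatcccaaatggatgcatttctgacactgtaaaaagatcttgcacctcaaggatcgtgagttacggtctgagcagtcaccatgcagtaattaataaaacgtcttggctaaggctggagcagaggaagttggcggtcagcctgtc
Ptgs2 (chr1:150099781-150100030, plus strand): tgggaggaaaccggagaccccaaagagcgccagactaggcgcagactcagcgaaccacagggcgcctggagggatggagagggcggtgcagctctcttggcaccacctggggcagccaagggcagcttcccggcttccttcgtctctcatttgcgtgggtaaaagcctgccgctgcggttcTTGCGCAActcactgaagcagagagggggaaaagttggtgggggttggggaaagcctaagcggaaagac
Ptger2 (chr14:44987861-44988110, plus strand): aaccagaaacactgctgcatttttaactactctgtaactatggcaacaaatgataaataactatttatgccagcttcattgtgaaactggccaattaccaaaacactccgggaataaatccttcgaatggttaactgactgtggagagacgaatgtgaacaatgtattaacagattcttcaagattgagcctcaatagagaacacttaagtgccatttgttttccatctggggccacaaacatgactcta

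Of the 10 genes, 9 had a promoter in the RefSeq table. The motifs searched on both strands were TATAAA (a core promoter element), CACGTG (the canonical E-box), CACATG (another E-box), GACCACCCA (bound by GLI factors), TGACTCA (bound by AP-1) and TTGCGCAA (bound by C/EBP factors), and they were chosen with the sequences in view. Among 32851 mouse promoters of the same length the motifs were found in 12.4%, 6.02%, 12.3%, 0.225%, 4.46% and 0.164%. The Ptgds window held TGACTCA starting 35 bases before the start, the Ptgs2 window held TTGCGCAA starting 69 bases before it, and none of the 6 motifs was found in the Ptgs1 and Ptger2 windows. GC content was 58.4% for Ptgds, 48.0% for Ptgs1, 61.6% for Ptgs2 and 38.0% for Ptger2, against a median of 52.4% over all promoters.

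The libraries held 3637 cells and 17168578 UMIs (B6129PF1/J) and 3928 cells and 15230413 UMIs (C57BL/6J), with medians of 3881 and 3174.5 UMIs per cell, and 22 cell barcodes occurred in both. The deposited annotation has 13 clusters of 7 cell types: RPE (cluster 1), ECs (2 to 4), stromal cells (5 to 8), smooth muscle cells (9), melanocytes (10), hematopoietic cells (11) and Schwann cells (12 and 13). Markers matched these names, with Rpe65 at 57.9 and 59.9 UMIs per 10,000 in cluster 1, Cdh5 at 3.76 to 4.64 in clusters 2 to 4, Acta2 at 132 and 142 in cluster 9, Mlana at 105 and 131 in cluster 10 and Ptprc at 3.12 and 3.43 in cluster 11. The stromal clusters were not alike. Cluster 6 carried the pericyte gene Rgs5 at 95.9 and 93.0, whereas Pdgfra was at 1.43 to 3.37 in clusters 5, 7 and 8.

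Levels are given below as UMIs of a gene per 10,000 UMIs of a cluster, first in B6129PF1/J and then in C57BL/6J. With 1 library per strain there was no replicate and no test across strains or clusters, and the 95% intervals (exact Poisson for levels, Clopper-Pearson for shares) cover counting error only. Every one of the 10 genes passed the minimum of 10 UMIs in each library. None of them was at least 5 times as high in 1 cluster as in every other cluster of both libraries, a rule met by 5.51% of all genes tested (754 of 13691). The highest cluster differed between the libraries for Ptgis, Ptger3 and Ptger4, and how often it does so over all genes was not counted. With the clusters merged into the 7 cell types, Ptgs1 (ECs) and Ptgs2 (stromal cells) met the 5-fold rule, as did 9.01% of all genes, and without clusters under 50 cells, which include melanocytes, Ptgds (RPE) met it, as did 5.97%.

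The cyclooxygenases divided between cell types. Ptgs1 was an endothelial transcript, with 88.7% (86.8 to 90.4) and 90.3% (88.5 to 91.9) of its UMIs in ECs, which held 27.1% and 31.9% of all UMIs. Its level was 2.65 (2.45 to 2.86) and 2.4 (2.22 to 2.59) in cluster 3, 1.98 (1.79 to 2.20) and 2.21 (2.00 to 2.44) in cluster 2, and 1.28 (0.925 to 1.74) and 1.09 (0.762 to 1.51) in cluster 4. Clusters 3 and 2 differed by 1.33 times (1.17 to 1.52) in B6129PF1/J and could not be ordered in C57BL/6J, where the ratio was 1.09 (0.957 to 1.23). Both lay above cluster 4 beyond counting error. Cluster 2 is also where Ihh itself was highest, at 3.20 and 3.36, against 0.974 and 0.609 in cluster 3.

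Outside the endothelium Ptgs1 was sparse. The next levels based on more than 10 UMIs were in hematopoietic cells at 0.219 and 0.247 (12 and 15 UMIs) and in stromal cluster 5 at 0.239 and 0.184. Smooth muscle cells held 3 and 2 Ptgs1 UMIs in all. At least 1 Ptgs1 UMI was seen in 66.7% and 56.3% of cluster 3 cells but in 0.804% and 0.216% of smooth muscle cells, whose median depth of 4635 and 3803 UMIs was no lower than the 4147 and 3430 of cluster 3. After thinning every cell to 1700 UMIs the cluster 3 shares were 35.1% and 31.9%, and those of smooth muscle cells 0.268% and 0 of 463 cells, with an exact upper bound of 0.794%.

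Ptgs2 showed the converse pattern. Stromal cells held 92.5% of its UMIs in each library, and they held 39.0% and 37.7% of all UMIs. Cluster 5 led with 1.88 (1.73 to 2.03) and 1.09 (0.971 to 1.22), followed by cluster 8 with 1.12 (0.877 to 1.42) and 0.649 (0.441 to 0.921) and cluster 7 with 0.565 (0.417 to 0.749) and 0.289 (0.169 to 0.463). The order of these 3 clusters was the same in both strains, and cluster 5 exceeded cluster 8 by 1.67 times (1.30 to 2.17) and 1.68 times (1.16 to 2.52). The Rgs5-rich cluster 6 carried far less, at 0.147 and 0.0368. In ECs Ptgs2 was at 0.0262 to 0.0953 in clusters 2 and 3, and it was at 0.0167 and 0.00572 in RPE.

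Ptgs2 differed between the 2 libraries beyond counting error in every stromal cluster. The level in B6129PF1/J was 1.72 times (1.5 to 1.98) that in C57BL/6J in cluster 5, 1.73 times (1.12 to 2.73) in cluster 8, 1.95 times (1.10 to 3.62) in cluster 7 and 3.99 times (1.72 to 10.8) in cluster 6. At equal depth the share of cluster 5 cells with a Ptgs2 UMI was 21.9% (19.2 to 24.9) and 12.4% (10.2 to 14.8), against 34.4% and 20.1% before thinning. In RPE, taken as background, 1.23% and 0.267% of cells had a Ptgs2 UMI before thinning, at median depths of 5263 and 3406.5 UMIs against 3516.5 and 3037 in cluster 5. For Ptgs1 the same ratio was 0.897 (0.777 to 1.03) in cluster 2 and 1.10 (0.987 to 1.23) in cluster 3, both within counting error. Because each strain is 1 library of 2 animals, strain, animals and library cannot be told apart.

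**Figure D1:**
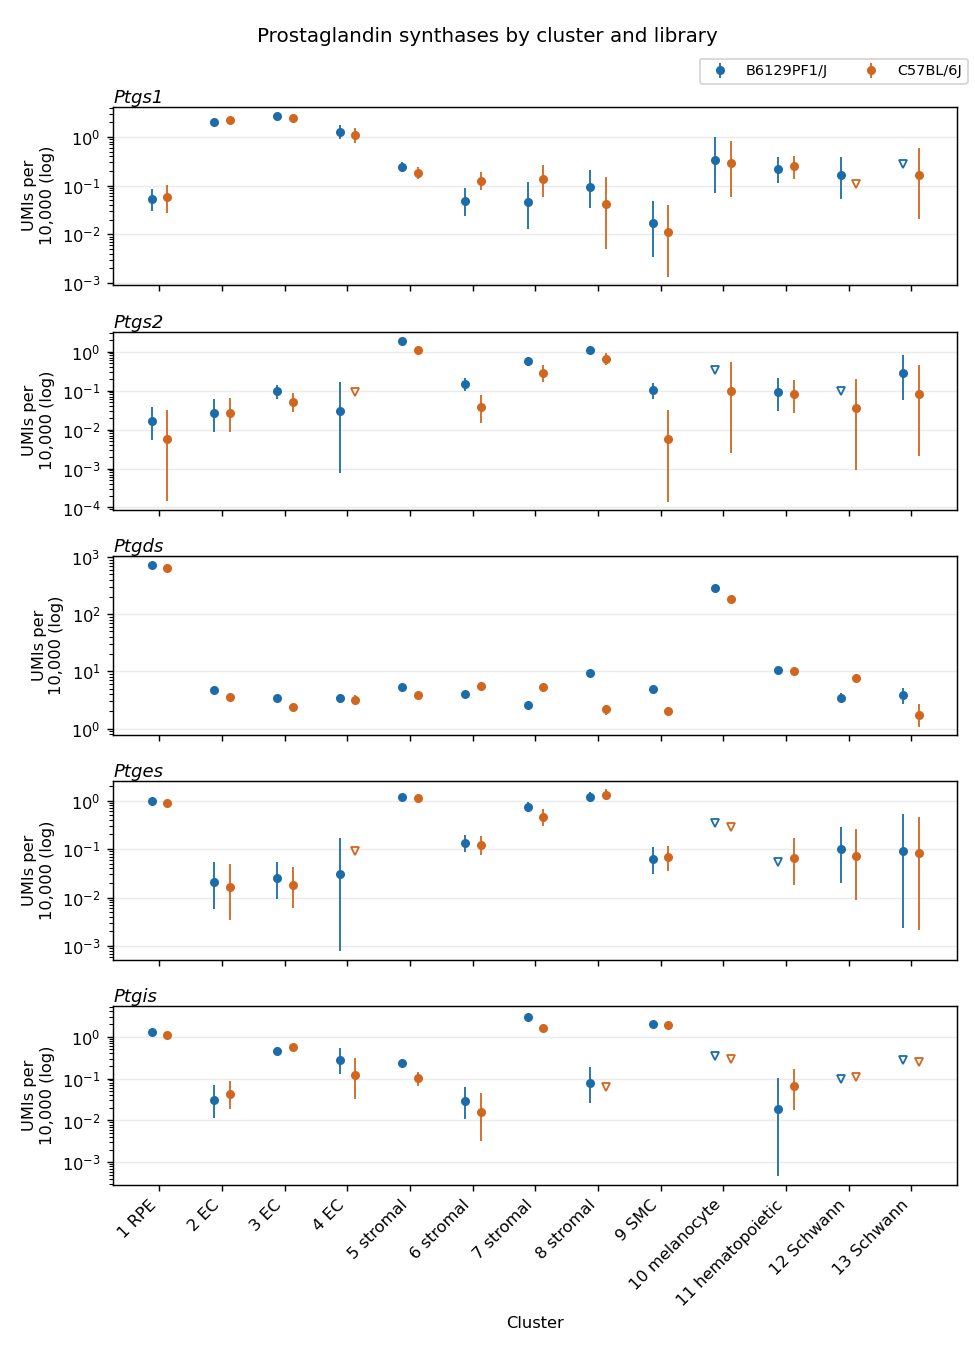
Levels of the 5 synthase genes in UMIs per 10,000 (log axes, each panel with its own range) in the 13 clusters of the B6129PF1/J (blue) and C57BL/6J (orange) libraries. Points are summed levels and bars 95% Poisson intervals, and open triangles mark clusters with no UMI at the level that 3 UMIs would give. Ptgs1 peaks in the EC clusters at 1.09 to 2.65, Ptgs2 in stromal clusters 5, 7 and 8 at 0.289 to 1.88, and Ptgds in RPE and melanocytes at 184 to 734.

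Ptgds had by far the most UMIs of the 10 genes. In RPE it reached 734 (731 to 737) and 637 (633 to 641) UMIs per 10,000, that is 7.34% and 6.37% of all RPE transcripts counted, and ranked 2 among all genes in both libraries. RPE held 96.0% and 94.0% of all Ptgds UMIs. Of single RPE cells, 405 of 407 and 372 of 374 carried at least 100 per 10,000, with medians of 710 and 650. They ranged from 6.45 to 1452 and from 25.2 to 1198.

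Melanocytes were the other cells rich in Ptgds. The 16 and 26 melanocytes averaged 284 (273 to 295) and 184 (176 to 193) per 10,000, where the gene ranked 2 and 3. RPE exceeded melanocytes by 2.59 times (2.49 to 2.69) and 3.46 times (3.31 to 3.62). Single melanocytes ranged from 53.3 to 587 around a median of 286 in B6129PF1/J and from 29.8 to 582 around a median of 143 in C57BL/6J, and 14 of 16 and 19 of 26 carried at least 100 per 10,000.

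In the remaining 11 clusters Ptgds lay between 1.75 and 10.4 per 10,000, and 30.4% to 75.5% of cells had at least 1 UMI. A few cells carried much of this, since the 5 cells with the most Ptgds held 16.3% to 81.6% of a cluster's Ptgds UMIs, single cells reached 515 per 10,000, and the median cell lay between 0 and 3.61. Transcripts so abundant in RPE can enter any droplet as free RNA, so Ptgds was set against 6 other RPE genes (Rgr, Rdh5, Rpe65, Rlbp1, Ttr and Trf). RPE cells held 0.462 and 0.417 Ptgds UMIs per UMI of these genes. The same ratio in the 11 clusters was 0.612 to 1.27 times that of RPE, although their Ptgds level was only 0.275% to 1.62% of that in RPE. The Ptgds levels of these clusters thus went with the summed level of the 6 genes. Ttr gave most of that sum, with 334465 of 476788 UMIs in B6129PF1/J RPE, and single genes held less closely to 1 ratio. In B6129PF1/J the ratio was 0.280 times that of RPE for Trf in cluster 11 and 0.321 times for Rdh5 in cluster 6. For Rgr in cluster 13 it was 2.92 times, on 3 Rgr UMIs. Melanocytes stood apart, with 42.7 (33.0 to 56.3) and 13 (11 to 15.5) Ptgds UMIs per UMI of the RPE genes, which is 92.5 and 31.2 times the ratio in RPE. They held 59 UMIs of the 6 genes in B6129PF1/J beside 2519 of Ptgds.

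**Figure D2:**
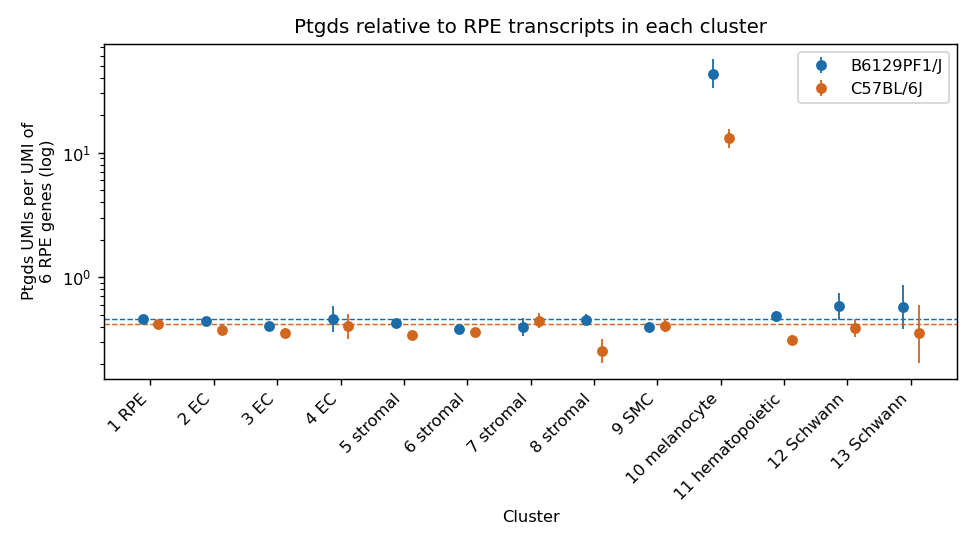
Ptgds UMIs per UMI of 6 RPE genes (log axis) in each cluster of the B6129PF1/J (blue) and C57BL/6J (orange) libraries, with 95% intervals. Dashed lines mark the ratio in RPE of each library. Melanocytes lie at 42.7 and 13, and the other clusters at 0.612 to 1.27 times the RPE ratio of 0.462 and 0.417.

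Ptges, the inducible microsomal synthase of prostaglandin E2, was shared by stromal cells and RPE. Stromal cells held 62.4% (59.1 to 65.6) and 70.6% (66.8 to 74.2) of its UMIs and RPE 34.6% (31.4 to 37.9) and 25% (21.6 to 28.6). The levels were 1.20 (0.947 to 1.51) and 1.32 (1.01 to 1.69) in cluster 8, 1.17 (1.05 to 1.29) and 1.15 (1.03 to 1.29) in cluster 5, and 0.990 (0.881 to 1.11) and 0.875 (0.742 to 1.03) in RPE. Clusters 8 and 5 could not be ordered, with ratios of 1.03 (0.795 to 1.32) and 1.15 (0.860 to 1.5). Cluster 7 had 0.742 and 0.460, and cluster 6 had 0.132 and 0.121.

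In ECs Ptges was nearly absent, with 11 and 8 UMIs in all, and none was counted in melanocytes, which allows up to 0.338 and 0.289 per 10,000. Before thinning, 43.7% and 29.7% of RPE cells had a Ptges UMI, against 1.08% and 0.744% of cluster 2 ECs with median depths of 4232.5 and 3460 UMIs. Thinned to 1700 UMIs, the RPE shares were 16.5% and 13.6%. Ptges thus lay with Ptgs2 in clusters 5, 7 and 8, but in RPE it was counted almost without either cyclooxygenase, since Ptgs1 was at 0.0533 and 0.0572 there.

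Ptgis, the prostacyclin synthase, was spread over several cell types. It was counted in stromal cluster 7 at 2.99 (2.64 to 3.38) and 1.63 (1.32 to 2.00), in smooth muscle cells at 2.01 (1.81 to 2.23) and 1.94 (1.74 to 2.15), and in RPE at 1.32 (1.19 to 1.46) and 1.09 (0.943 to 1.26). Cluster 7, the stromal cluster with the most Col1a1 at 13.1 and 9.84, was highest in B6129PF1/J at 1.49 times smooth muscle cells (1.26 to 1.75). In C57BL/6J smooth muscle cells and cluster 7 did not separate, at a ratio of 1.18 (0.943 to 1.5). The level in cluster 7 was 1.83 times (1.44 to 2.34) as high in B6129PF1/J as in C57BL/6J, whereas the smooth muscle ratio was 1.04 (0.894 to 1.21).

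Among ECs, most Ptgis UMIs were in cluster 3, at 0.464 (0.382 to 0.559) and 0.572 (0.485 to 0.669), while cluster 2 had 0.0315 and 0.0438. Cluster 4 lay between, at 0.275 (0.126 to 0.522) and 0.121 (0.0329 to 0.310), from 9 and 4 UMIs. Cluster 8 held 5 and 0 UMIs, cluster 6 held 6 and 3, and cluster 5 had 0.239 and 0.101 (76 and 28 UMIs), all far below cluster 7. At least 1 UMI was seen in 50.3% and 32.3% of cluster 7 cells, which became 29.7% and 14.6% at equal depth, and in 1.11% and 0.498% of cluster 6 cells at medians of 4318 and 3380.5 against 3595 and 2870 UMIs.

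The receptors lay mostly in stromal and smooth muscle cells. Stromal cells held 88.9% and 88.3% of Ptger2 UMIs, 70.8% and 74.9% of Ptger4, 95.8% and 89.8% of Ptgfr, and 76.7% and 81.4% of Ptgir. ECs held at most 9 UMIs of Ptger2, 14 of Ptger4, 3 of Ptgfr and 6 of Ptgir in a library, and none of Ptger3. RPE held at most 5 UMIs of any of the 5 receptors, and melanocytes held none in either library.

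Ptger2, the cAMP-coupled EP2 receptor, had the most UMIs of the 5 (633 and 537). Its level was 1.19 (1.07 to 1.31) and 1.15 (1.03 to 1.28) in cluster 5, 0.919 (0.726 to 1.15) and 0.783 (0.573 to 1.04) in cluster 7, and 0.431 (0.346 to 0.531) and 0.416 (0.329 to 0.518) in cluster 6. Cluster 5 exceeded cluster 7 by 1.29 times (1.01 to 1.67) and 1.47 times (1.07 to 2.04). In cluster 8 it was at 0.316 and 0.649, and in smooth muscle cells at 0.338 and 0.229. The library ratio was 1.03 (0.888 to 1.20) in cluster 5 and 0.487 (0.263 to 0.883) in cluster 8. Ptger2 UMIs were found in 32.0% and 29.6% of cluster 5 cells, 17.0% and 16.4% once thinned, and in 0.270% and 0.993% of cluster 2 ECs.

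Ptger4, the EP4 receptor, was the one receptor with at least 10 UMIs in hematopoietic cells. The hematopoietic level was 0.512 (0.340 to 0.739) and 0.330 (0.202 to 0.509) from 28 and 20 UMIs. Cluster 5 had 0.249 (0.197 to 0.310) and 0.585 (0.498 to 0.682), so the hematopoietic cluster was higher in B6129PF1/J by 2.06 times (1.29 to 3.20) and cluster 5 in C57BL/6J by 1.77 times (1.11 to 2.98). The levels in B6129PF1/J were 0.425 times (0.321 to 0.560) those in C57BL/6J in cluster 5, 0.489 times (0.306 to 0.768) in cluster 6 and 0.505 times (0.284 to 0.872) in smooth muscle cells, but 1.55 times (0.843 to 2.90) in the hematopoietic cluster. In clusters 5 and 6, but not 7 or 8, Ptger4 was thus lower beyond counting error in the library in which Ptgs2 was higher. Ptger4 was at 0.141 and 0.0681 in cluster 7 (12 and 4 UMIs), and its library ratio in cluster 8 was 0.961 (0.405 to 2.34).

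The hematopoietic cluster was clustered again to place these counts. Of 233 cells, 22 formed a T cell-like group led by Nkg7, Cd3g and Cd3d, while the other 8 groups were left without a name. Among these, a group of 29 cells was led by the mast cell protease genes Mcpt4, Tpsb2, Cpa3 and Cma1, but each of them had UMIs in only 2 of its cells. Ptger4 UMIs numbered 10 in a group of 30 cells led by Cxcl2 and Cxcl1, 10 in a group of 29 cells with Cd209a, 12 in 17 cells led by the stromal and smooth muscle genes Apod, Myl9 and Dcn, and 3 in the group led by Mcpt4. Ptgs1 UMIs were spread over 7 of the 9 groups, with 10 in the Cxcl2 group. In a group of 12 cells led by Ttr and Cd79a, Ptgds was at 164 per 10,000 and the RPE genes Rgr, Rdh5 and Rpe65 were also among the leading genes.

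Ptgir, the prostacyclin receptor, was highest in the Rgs5-rich cluster 6, at 0.333 (0.259 to 0.422) and 0.373 (0.292 to 0.471). Smooth muscle cells had 0.203 and 0.134 and cluster 5 had 0.170 and 0.188. Cluster 6 exceeded the next cluster by 1.64 times (1.08 to 2.53) and 1.99 times (1.37 to 2.90). The receptor thus peaked in a cluster that held 6 and 3 UMIs of the prostacyclin synthase, and the next levels included smooth muscle cells, where that synthase was abundant.

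Ptgfr, the receptor for prostaglandin F2α, was sparse, with 96 and 49 UMIs in all. It was highest in cluster 8 at 0.269 (0.157 to 0.431) and 0.251 (0.130 to 0.439), and cluster 7 came next at 0.177 and 0.0851, a difference within counting error in both libraries. In cluster 5 the ratio between libraries was 2.24 (1.18 to 4.50). Ptger3, the EP3 receptor, had only 17 and 26 UMIs. Of these, 12 and 18 lay in stromal cells, and no order of clusters could be drawn at this depth.

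**Figure D3:**
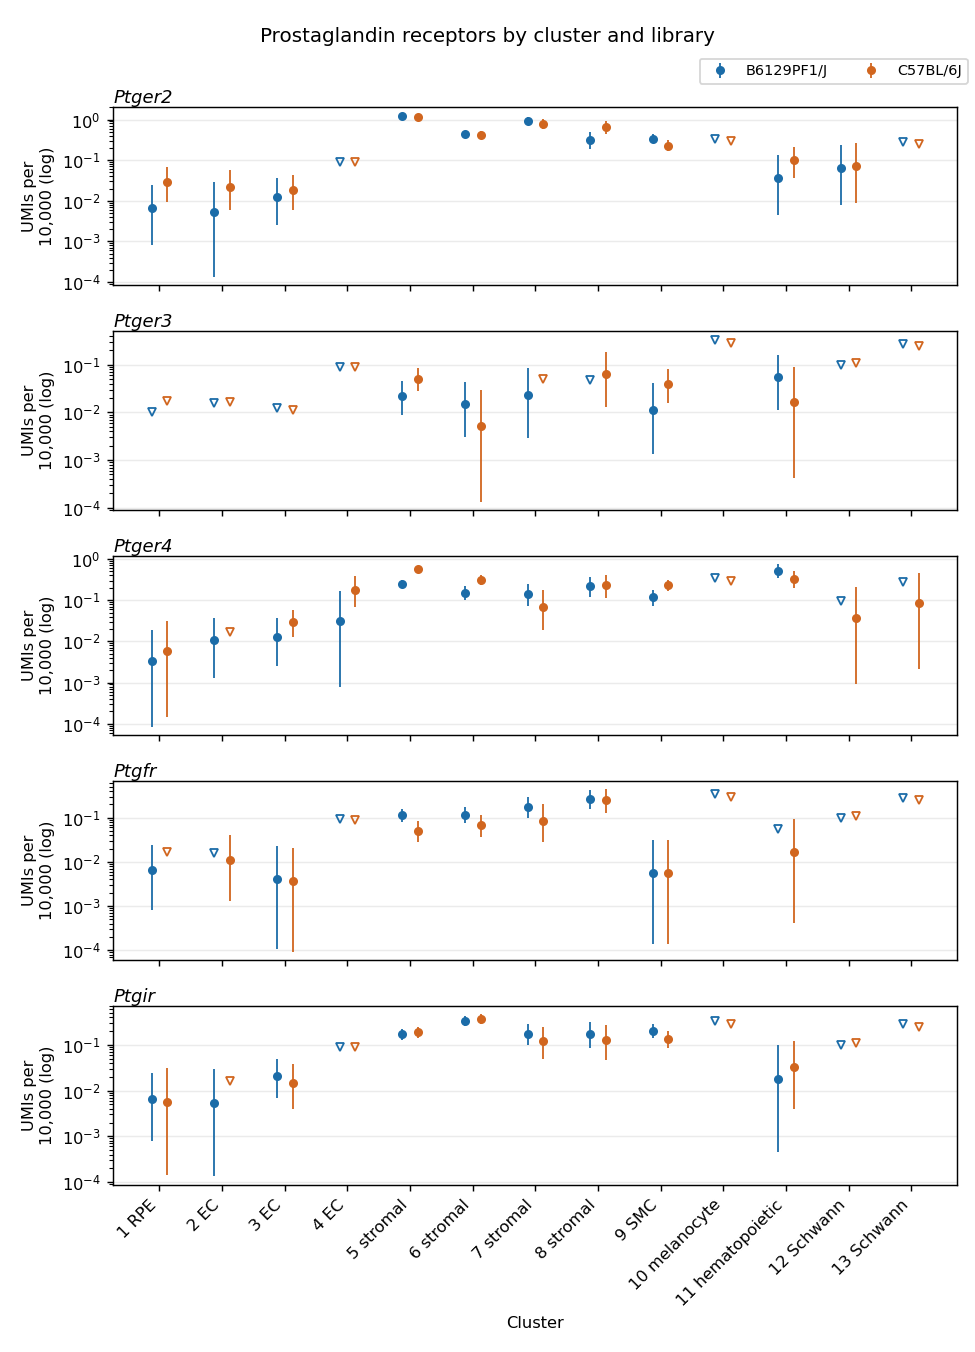
Levels of the 5 receptor genes in UMIs per 10,000 (log axes, each panel with its own range) in the 13 clusters of the B6129PF1/J (blue) and C57BL/6J (orange) libraries. Points are summed levels, bars 95% Poisson intervals, and open triangles clusters with no UMI, placed at the level of 3 UMIs. Ptger2 is highest in cluster 5 at 1.19 and 1.15, Ptgir in cluster 6 at 0.333 and 0.373, and Ptgfr in cluster 8 at 0.269 and 0.251.

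The rest of the pathway was followed with 25 genes of prostanoid and leukotriene metabolism, of which 20 passed the UMI minimum and 2 met the 5-fold rule. These were Tbxas1, the thromboxane synthase, and Alox5ap, the 5-lipoxygenase activating protein, both in hematopoietic cells at 0.457 and 0.462 and at 5.50 and 6.45. Of the prostaglandin D2 receptors, Ptgdr did not pass the UMI minimum and Ptgdr2 was not among the genes counted, so neither could be placed. Upstream of the cyclooxygenases, the phospholipase gene Pla2g4a lay with Ptgs2 in cluster 5 (1.36 and 1.6) and cluster 7 (1.74 and 1.45), and Pla2g5 in RPE (4.17 and 3.60). Downstream, the degrading enzyme Hpgd was in cluster 5 at 1.59 and 1.34 and in hematopoietic cells at 1.32 and 2.70. The prostaglandin transporter Slco2a1 was counted mostly in EC cluster 3 (79.1% and 78.1% of its UMIs), at 0.986 and 0.742.

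The thromboxane receptor Tbxa2r was the exception to the low receptor counts of ECs, at 6.31 and 4.42 in cluster 2 and 1.65 and 1.08 in cluster 3. Ptger1, the EP1 receptor, resembled Ptgir in peaking in cluster 6, at 0.788 and 0.710. The second synthase of prostaglandin D2, Hpgds, held 7 and 11 UMIs in melanocytes and 26 and 44 in hematopoietic cells. As a level it was highest in melanocytes, at 1.66 times (0.608 to 3.93) and 1.46 times (0.680 to 2.87) hematopoietic cells, within counting error. Of the hematopoietic UMIs, 45 were in a group of 39 cells led by Folr2 and Gpnmb, with the melanocyte markers Pmel and Tyrp1 also among its leading genes. Of the other E2 synthases, Ptges3 was not restricted as Ptges was, since it lay between 0.890 and 2.99 in every cluster. Ptges2 was highest in RPE at 0.780 and 0.686, which was 3.30 and 2.52 times the next cluster.

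The genes most like each member were ranked over the 26 levels of 13 clusters and 2 libraries among 9664 genes (Pearson correlation of log2 levels, a description, since clusters of a library share its depth and free RNA). Ptgds was most like Kcnj13 (r = 0.97), Gsta2 and Pla2g5, and Ptgs1 most like Sh3tc1 (0.95), Cyyr1 and Gimap1. Ptgs2 was most like Pdgfra (0.92), Cpxm1 and Clmp. For the E2 synthase Ptges the nearest gene was Sox9 (0.92), with Echdc2 and Fgfr2, and for Ptgis it was Perp at only 0.80, with Ackr3 and Thbs1. Among the receptors, Ptger2 was nearest to Irx2 (0.96), Pgf and Serping1, Ptgfr, on few UMIs, to Pdgfrl (0.92), Fbln1 and Zfp354c, and Ptger4 to Runx1 (0.87), Cebpa and Adrbk2. Ptgir was close to Pdgfrb (0.96) and C1qtnf7. Within the set, the closest pair was Ptger2 and Ptgir (0.87), and Ptgs1 was negatively related to all 9 others.

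In bulk RPE/choroid the E2 receptor Ptger2 was lower in Ihh iΔEC than in Ihh+/+ mice, and no other member differed by 2 times at or above 1 FPKM. The targeted gene Ihh was at 1.53 FPKM (fragments scaled to transcript length and library size) in Ihh+/+ and 0.454 in Ihh iΔEC, and the Hedgehog targets Gli1, Hhip and Ptch1 went from 9.40 to 3.15, from 1.05 to 0.346 and from 7.69 to 4.98. Ptger2 was at 2.31 FPKM in Ihh+/+ and 0.672 in Ihh iΔEC, 3.44 times lower and -1.78 on the log2 scale. Among the 7 members at or above 1 FPKM in either genotype, it was the 1 that met the rule of 2 times, which 0.745% of all genes met downward (85 of 11411) and 1.1% upward (126). With a pseudocount of 1 FPKM added to both means, Ptger2 no longer met it. In bulk tissue, fewer cells of a type and less RNA per cell cannot be told apart.

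The other members at or above the minimum lay closer to the control, at ratios of 0.779 to 1.15. Ptgds was the most abundant of all 17623 genes in both genotypes, at 10796 FPKM in Ihh+/+ and 12205 in Ihh iΔEC, a ratio of 1.13. Ptgis was at 29.5 and 34, Ptges at 25.4 and 26.3, Ptgs1 at 3.87 and 3.26, Ptgs2 at 3.54 and 2.76, and Ptgir at 1.29 and 1.46. Below the minimum, Ptgfr was at 0.697 and 0.292, a ratio of 0.418, and Ptger3 at 0.215 and 0.235. Ptger4, with the other genes of chromosome 15, was not analysed here in bulk.

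Several cell type markers also differed between the genotypes. Of the cells that held Ptger2, the stromal markers Pdgfra, Pdgfrb and Col1a1 were at 0.651, 0.832 and 0.577 of control, the pericyte markers at 0.759 to 1.04 and the smooth muscle markers at 0.786 to 0.964. The genes most like Ptger2 over the clusters were lower as well but less so, with Irx2 at 3.37 and 2.02 FPKM, Pgf at 30.1 and 23.9 and Serping1 at 82.1 and 62.1. RPE markers were higher, 5 of 5 at 1.16 to 1.34 of control, endothelial markers were at 0.819 to 0.989, and melanocyte markers at 0.544 to 0.701. Macrophage markers were at 0.668 to 1.10 and rod photoreceptor markers at 0.300 to 0.424, and 4 of 5 mast cell genes were at 0.279 to 0.377 of control. These were the mast cell protease genes Cma1, Cpa3, Tpsb2 and Mcpt4, while Kit was at 0.897. The part of the stromal and other markers in the Ptger2 difference was not tested. Fragments of Gm17173 and Gm49364, which overlap Ptger2 on the other strand, cannot be told from its own if the counting did not use strand, which the sources used here do not state.

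**Figure D4:**
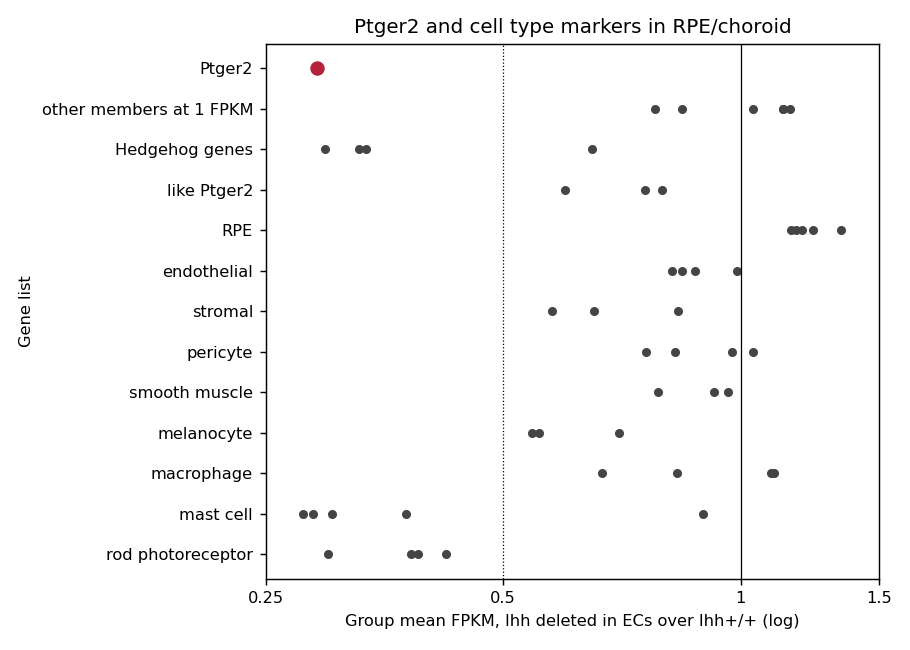
Ratio of group mean FPKM in Ihh iΔEC over Ihh+/+ RPE/choroid (log axis) for Ptger2 (red), the other members at or above 1 FPKM, 4 Hedgehog genes, the 3 genes most like Ptger2 and marker genes of 9 cell types, 1 point per gene. The solid line marks no difference and the dotted line 2 times lower, and Ptger2 lies at 0.291 while stromal markers lie between 0.577 and 0.832.

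None of the 25 pathway genes met the rule of 2 times in this comparison, 21 of them being at or above 1 FPKM. The values closest to it were those of Pla2g2e, at 6.70 and 3.93 FPKM, and Hpgd, at 6.06 and 3.84. Ptger1, another E2 receptor, was at 12.1 and 10.1.

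In cultured GLI1+ cells the Hedgehog genes were higher with SAG, whereas no member reached a difference of 2 times above the minimum. Gli1 was at 0.028 FPKM with DMSO and 3.65 with SAG, Ptch1 at 1.13 and 10.1 and Hhip at 0.368 and 1.28. Gli1, by which the cells had been selected, was thus near 0 in the cells given DMSO. The cells expressed stromal genes, with Col1a1 at 1555 FPKM and Pdgfra at 39.2 with DMSO, while Cdh5 was at 0.068 and Ptprc at 0.00233. None of the 7 members at or above 1 FPKM met the rule of 2 times, which 0.387% of all genes met upward (40 of 10325) and 1.18% downward (122). Nor did any of the 14 pathway genes at that level.

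The cultured cells held transcripts of all 5 synthases. With DMSO and SAG, Ptgis was at 50.8 and 42.5 FPKM, Ptgs2 at 11 and 9.44, Ptgs1 at 7.64 and 7.41, Ptgds at 7.29 and 9.15, and Ptges at 6.55 and 5.74. Among the 4 receptors measured, Ptgfr was highest at 7.00 and 6.07, and Ptgir was at 2.01 and 1.8. Ptger2, the receptor with the most UMIs in stromal cells of the tissue, was at 0.104 and 0.297, so that its ratio of 2.86 rests on values under the minimum, and Ptger3 was at 0.0537 and 0.079. Of the 3 genes most like Ptger2 over the clusters, Pgf alone is given here for culture, at 0.260 and 1.11. No pattern of the genes like Ptger2 is drawn from it. Likewise, of the 3 genes most like Ptgs2, Cpxm1 alone is given with both culture values, at 20.3 and 45.2. In tissue Cpxm1 was at 18.3 in Ihh+/+ and 8.37 in Ihh iΔEC. Ptgs2 itself went the other way in culture, at 11 and 9.44. In tissue it went the same way as Cpxm1 but by less, at 3.54 and 2.76.

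**Figure D5:**
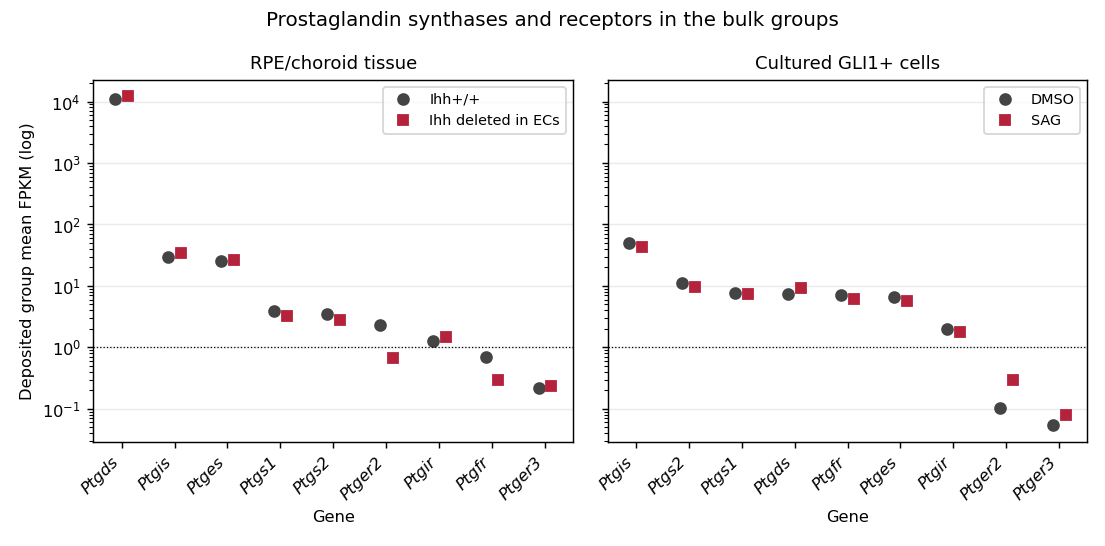
Deposited group mean FPKM (log axis) of the 9 members with a row in the bulk tables, in RPE/choroid of Ihh+/+ (circles) and Ihh iΔEC mice (squares) and in cultured GLI1+ cells with DMSO (circles) and SAG (squares). The dotted line marks 1 FPKM. Of the 9, Ptger2 alone lies on opposite sides of it, at 2.31 and 0.672 in RPE/choroid. The 2 tables were normalized separately, and levels are compared only within each.

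The table of sorted ECs lists only 99 genes, which the authors selected as higher in choroidal ECs than in ECs of the other 4 organs. Ptgds was the only member in it, and the choroidal EC values were not analysed here. Ptgds was at 8.87 FPKM in neural retina ECs, 0.107 in lung, 0.014 in liver and 1.28 in heart ECs. In the single-cell EC clusters 2 to 4 Ptgds was at 0.376% to 0.653% of its RPE level. Its ratio to the 6 RPE genes there was 0.856 to 1.00 times that of RPE. The part of RPE transcripts in the listing of Ptgds was not tested.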

How the data were processed

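The deposited UMI count tables hold raw counts per gene and cell that the authors made with Cell Ranger (mm10), with clusters from Seurat 2.1. A deposited table of averages per cluster is in natural log units of normalized UMIs as made by the authors, and it served as an alternative only. The bulk tables hold the authors' FPKM as group means, beside the authors' own log2 fold changes and adjusted p-values, which were not used. The submitters' processing notes name STAR 2.4.0f1, SAMtools 0.1.19, Cufflinks 2.0.2, HTSeq and DESeq2. Depth per bulk library is unknown from these means. Strand use and doublet removal were not given in the sources used here, and no doublet caller was run.

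UMIs were summed per cluster and library and divided by the summed UMIs of all genes. Shares of cells were thinned to 1700 UMIs per cell, and no cell was shallower. Likeness used log2(UMIs per 10,000 + 0.1) and compared each member, whatever its count, with genes of at least 100 UMIs per library (Ptgfr held 96 and 49). The hematopoietic cluster was divided with scanpy 1.11.5 and igraph 0.11.9 (2000 variable genes without the members and pathway genes, 15 components, 15 neighbours, Leiden resolution 1). Bulk groups were compared as ratios of means, called at a difference of 2 times where the higher group reached 1 FPKM. Calculations used Python 3.11.15, numpy 2.4.6, scipy 1.17.1 and pandas 2.3.3. The 5-fold rule and the intervals were also run on simulated Poisson counts, which lack free RNA and spread between cells. Groups came from the sample labels. A column of choroid ECs in the table of organ ECs was not used.

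Named genes are all 10 members, pathway genes that met a rule or stand next to a member, the 3 genes most like each member, and markers, of which some are not reported here. The members and lists were chosen with earlier results of these data known. Other settings are listed in the closing section.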

Additional observations from a re-analysis of the deposited data

How the results depend on the processing

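Merging the 13 clusters into 7 cell types brought 2 members (Ptgs1 and Ptgs2) past the 5-fold rule, as against 0 over clusters, with 9.01% of all genes. Leaving out clusters under 50 cells, melanocytes included, brought 1 (Ptgds), with 5.97% of all genes. A fold of 3 or 10 and the deposited averages left the count at 0. In the Ihh comparison, a pseudocount of 1 FPKM left 0 members lower, and no minimum gave 2 (Ptger2 and Ptgfr) with 6.04% of all genes. Without a minimum, 1 member (Ptger2) was higher with SAG, with 6.18% of all genes. Scaling by the median ratio and a fold of 1.5 changed no count of members. Of the 10 highest levels, the C57BL/6J library put 5 outside the interval of the B6129PF1/J level alone (0.301 to 1.12 times over all 10), averaging over cells 2, leaving out the cell with the most UMIs of the gene in question 1, a denominator without Ptgds, Ttr and mitochondrial genes 1, and leaving out cells with both Xist and Ddx3y 0. No paired analysis was possible because the bulk tables hold group means, and leaving out single replicates was not run for the same reason. Small counts, at most 14 UMIs per cluster for Ptger3 and 36 for Ptgfr, limit any order of clusters.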
